A study of Sus scrofa with 39 samples.

Results

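The transcripts of 37 genes for lysosomal enzymes and membrane proteins were followed in the blood of preterm piglets with severe, mild or no necrotizing enterocolitis (NEC), an inflammatory and necrotic disease of the immature gut. The genes were taken as a named list, matched by their Ensembl pig symbols to the count files of 39 libraries. A row was found for 36 of the 37, among 25880 genes in the files, and the row of NAGLU was not analysed here. Severe NEC is represented by 9 piglets, mild NEC by 11 and controls without NEC (CON) by 19, with 20 labelled male and 19 female. All were formula fed, from a set of 129 piglets reviewed retrospectively, and NEC was diagnosed at necropsy on day 5. The sources used here name no genotype, drug or age at blood collection. Batch 1, whose library names start with R, held 3 severe, 4 mild and 7 CON piglets. Batch 2, with names in FKDL, held 4 severe and 5 CON piglets and no mild one. Batch 3 held 2 severe, 7 mild and 3 CON piglets with FKDL names, plus 4 CON piglets whose names carry BKDL.

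Lysosomes are acidic, membrane-bound compartments in which proteases, glycosidases, lipases and phosphatases break down material taken in by endocytosis, phagocytosis or autophagy. A proton pump in the membrane acidifies the lumen, most soluble enzymes arrive there by way of mannose 6-phosphate receptors, and transcription factors of the TFEB family can raise many of these genes together. In blood, monocytes are rich in these proteins, while neutrophils, platelets, lymphocytes and red cell precursors carry their own lysosomes or related granules.

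Each library held 12.82 to 28.96 M counts on genes (M for mega), but 5 globin genes took 35.0 to 90.6% of them, which left 1.48 to 12.5 M counts for all other genes. Globin dominance and the red cell, platelet, myeloid and lymphocyte markers found in all 3 groups fit the labelled tissue, blood. CON replicate 16, a BKDL library, had the lowest globin share (35.0%), NEC_Severe replicate 9 had the fewest genes detected (10674), and NEC_Severe replicate 2, labelled male, had 0 counts on KDM5D and 1 on EIF1AY, both Y-linked. Levels below are CPM, counts scaled to a common library size after TMM adjustment. They are not divided by gene length, so one gene's level cannot be set against another's.

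In total the 36 genes held a small and variable share of the counts outside globin. The share was lowest at 0.522%, had a median of 0.751% and reached 0.926% in severe NEC libraries. In mild NEC the lowest, median and highest shares were 0.245, 0.487 and 0.682%, and in CON they were 0.414, 0.593 and 0.935%. The 3 groups overlapped widely, with the lowest values in mild libraries. Of the 36 genes, 35 passed the low-count filter and were tested with the 10731 genes that passed it. Counts of 10 or more were found in every library for 27 of them, and 8 tested genes fell under 10 in at least 1 library. The cysteine protease gene CTSL did not pass: it had at least 1 count in 15 libraries and at most 23 counts, with none in any of the 14 libraries of batch 1. Within a batch and group the SD of log2 CPM lay below the median of all tested genes (0.56) for 27 of the 35 and above it for 8, from 0.30 for MAN2B1 to 0.68 for GLB1. Ranked by mean log2 CPM, which reflects read number and gene length together, the median of the 35 stood at percentile 76.2 of all tested genes. This SD depends on read number, so the 27 and 8 describe no trait of the list.

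**Figure D1:**
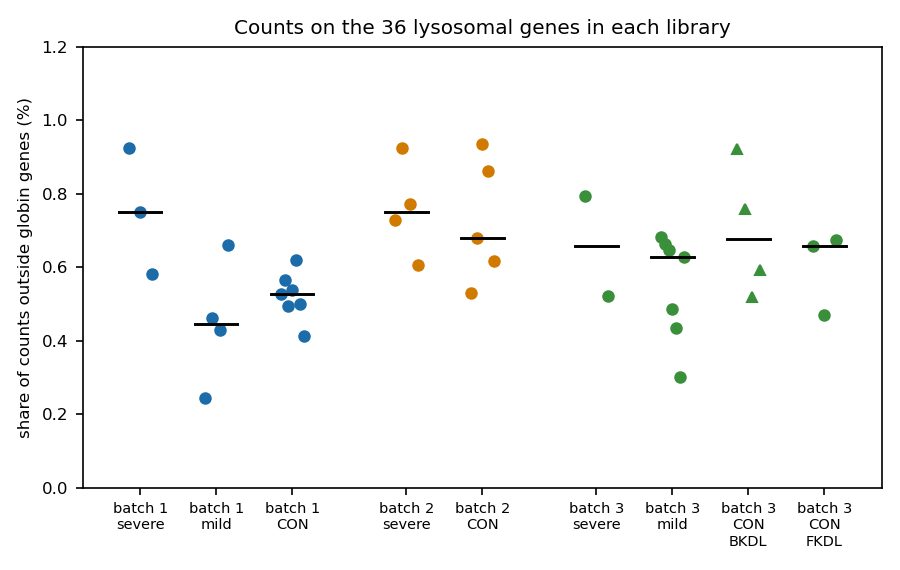
Share of the counts outside globin genes that fell on the 36 lysosomal genes (vertical axis, %), 1 point per library, by batch and group (horizontal axis), with triangles for BKDL libraries and black bars for medians. Severe NEC libraries span 0.522 to 0.926% and mild ones 0.245 to 0.682%, and each overlaps the CON range of 0.414 to 0.935%.

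Severe NEC against CON asks how these genes differ in piglets with the worst gut lesions. The acid ceramidase gene ASAH1 rose and the tartrate-resistant acid phosphatase gene ACP5 fell, while most other members read somewhat higher without passing the test. By edgeR's quasi-likelihood test at a false discovery rate (FDR) under 0.05, 2 of the 35 tested genes were called, against 2.09% of all 10731 genes (1.07% called higher and 1.02% lower). Without NEC_Severe replicate 9 there were 4 calls, and without NEC_Severe replicate 2 only 12 genes of all kinds passed, against 224. At an unadjusted p under 0.05 there were 11 of 35 (10 higher and 1 lower), against 18.6% of all genes (8.72% higher and 9.9% lower). In direction, 27 of the 35 had a log2 fold change above 0, where 44.7% of all genes did, and their median log2 fold change was 0.20, against -0.04 over all genes. With the level of monocyte markers as a further term in the fit, 14 of 35 were above 0 and the median was -0.05, against -0.06 over all genes. Whole blood mixes cells, so fewer cells of a type and less RNA per cell cannot be told apart.

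**Figure D2:**
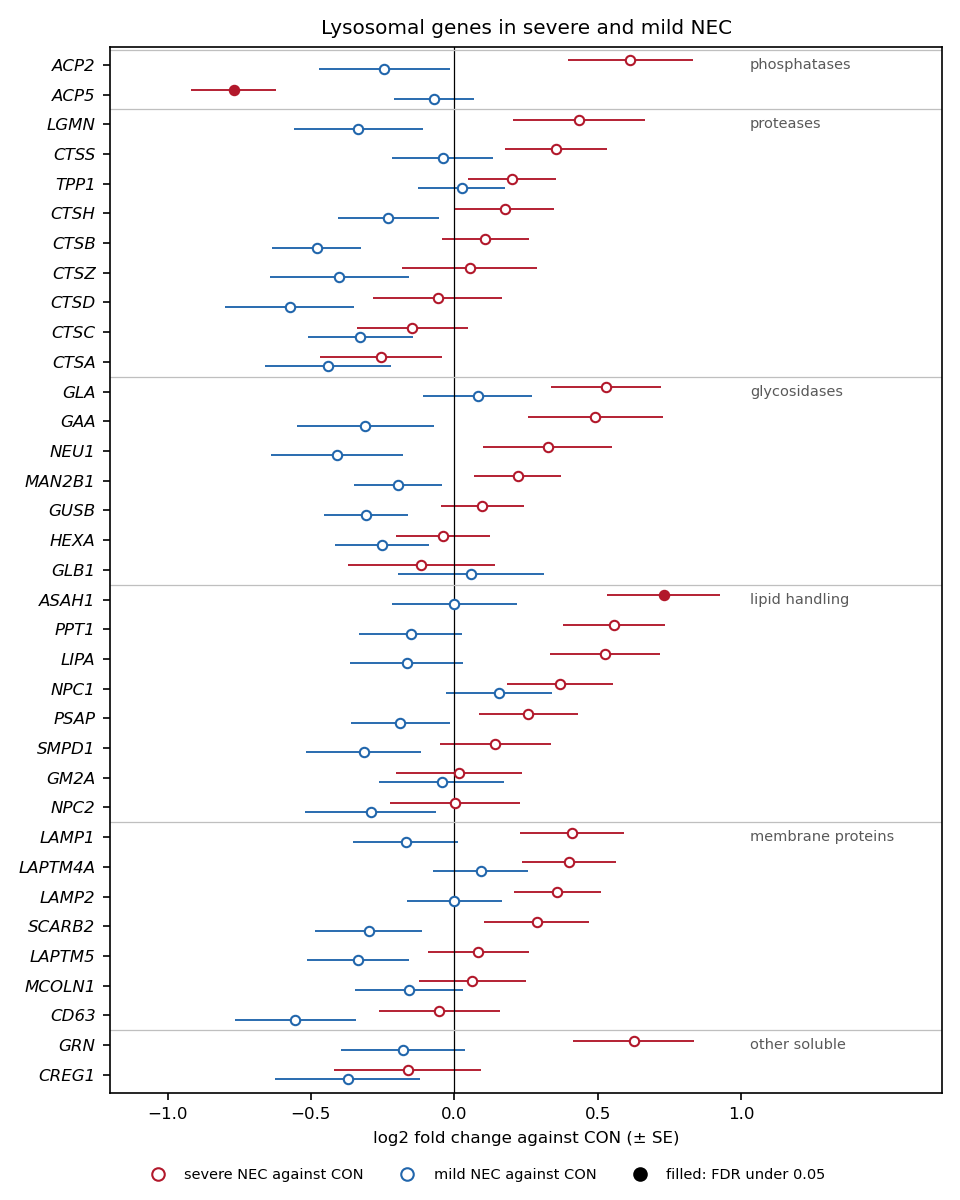
Log2 fold change (horizontal axis, points) with its standard error (bars) for the 35 tested lysosomal genes (vertical axis, grouped by role), for severe NEC against CON in red and mild NEC against CON in blue, with filled points for an FDR under 0.05. Most red points lie right of 0 and most blue points left of it, and only ACP5 (-0.77) and ASAH1 (0.73) are filled, both for severe NEC.

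Among the phosphatases, ACP5 and ACP2 read in opposite directions. ACP5 (ENSSSCG00000032282; Sscrofa11.1 chromosome 2, 70206159 to 70209855) encodes an enzyme known from osteoclasts and activated macrophages. In severe NEC libraries its lowest, median and highest levels were 4.24, 6.19 and 8.80 CPM, in mild NEC 5.58, 7.82 and 13.96 CPM, and in CON 6.30, 9.60 and 18.1 CPM. All 9 severe libraries lay below the CON median and 5 of them below every CON library, while 13 of the 19 CON libraries lay above the highest severe one. ACP5 fell by 0.77 on the log2 scale (SE 0.15; edgeR FDR 0.0166), the second smallest p among all tested genes. The call held with each of the 39 libraries left out in turn (FDR 0.00309 to 0.046). It was lost in 1 of 13 other settings, the one with the monocyte marker level as a term (log2 fold change -0.56, FDR 0.279, against 0.000358 to 0.279 over those settings).

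A lower ACP5 level in severe NEC was read in each batch. In batch 1 the severe libraries had 4.91, 5.04 and 6.19 CPM, and the 7 CON libraries 6.30 to 9.94 CPM. In batch 2 the severe libraries had 6.86, 5.96, 8.51 and 8.80 CPM, and the CON libraries 10.7, 11.9, 18.1, 13.03 and 10.99 CPM. In batch 3 the severe libraries had 4.24 and 6.31 CPM, the BKDL CON libraries 11.3, 6.93, 9.60 and 8.32 CPM, and the FKDL CON libraries 8.64, 10.04 and 11.9 CPM. Thus every severe library lay below every CON library of its own batch, which held for 4 of the 10731 tested genes (0.0373%), and for no tested gene in the opposite direction. The within-batch log2 fold changes of -0.67, -0.79 and -0.99 in batches 1, 2 and 3 (SE 0.26, 0.24 and 0.35) did not pass the test taken singly (edgeR FDR 0.262, 0.224 and 0.205). ACP2, the lysosomal acid phosphatase, had 2.55, 4.42 and 9.76 CPM (lowest, median, highest) in severe NEC and 1.60, 2.53 and 7.03 CPM in CON. All 9 severe libraries lay above the CON median, with 11 CON libraries under the lowest severe one, but the log2 fold change of 0.61 ± 0.22 (SE) did not pass (edgeR FDR 0.111). The annotated span of ACP2 overlaps NR1H3, and whether the counting used strand is unknown.

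Of the 8 genes that handle lipids, all 8 had log2 fold changes of 0 or above in severe NEC (median 0.31) and 1 was called. ASAH1 (ENSSSCG00000006995; chromosome 17, 5712048 to 5749811) encodes acid ceramidase, which splits ceramide into sphingosine and a fatty acid. Its lowest, median and highest levels were 4.36, 7.90 and 10.1 CPM in severe NEC, 1.91, 5.93 and 9.38 CPM in mild NEC, and 2.85, 4.10 and 9.19 CPM in CON. Each severe library exceeded the CON median, 2 exceeded every CON library, and 11 CON libraries were under the lowest severe one. ASAH1 rose by 0.73 (SE 0.20; edgeR FDR 0.0413). Within batches 1, 2 and 3 the log2 fold change was 0.87, 0.63 and 0.57, with no call in any of them.

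The ASAH1 call depended on single libraries. It held with 25 of the 39 libraries left out in turn. It was lost without CON replicate 1, 2, 5, 8, 10, 12, 18 or 19 (FDR 0.052 to 0.0592) and without NEC_Severe replicate 1, 2, 4, 5, 7 or 8 (FDR 0.0513 to 0.121). Of 13 other settings 7 kept it, with FDR between 0.0155 and 0.783. The highest of these came with the monocyte marker level as a term, where ASAH1 had a log2 fold change of 0.18. With the neutrophil marker level as a term instead, ASAH1 had 0.64 and was not called either (edgeR FDR 0.101).

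Other lipid genes read higher without passing. PPT1, the thioesterase that removes palmitate from proteins, had 14.97, 22.6 and 37.7 CPM (lowest, median, highest) in severe NEC and 10.6, 14.9 and 26.6 CPM in CON. All 9 severe libraries were above the CON median, and 10 CON libraries lay below the lowest severe one. That median pools batches whose CON levels differ. Mean PPT1 levels in severe and CON libraries were 20.8 and 12.9 CPM in batch 1 and 22.2 and 16.8 CPM in batch 2. In batch 3 they were 28.9 CPM and, for FKDL CON, 23.4 CPM. The lower of the 2 severe libraries there, at 20.1 CPM, lay below all 3 FKDL CON libraries (21.4 to 26.1 CPM). Its log2 fold change was 0.56 ± 0.18 (edgeR FDR 0.0746), and it passed without NEC_Severe replicate 9 (FDR 0.0255). PPT1 passed in 2 of 13 other settings (FDR 0.0379 to 0.996). LIPA, the acid lipase of cholesteryl esters and triglycerides, had a log2 fold change of 0.53 ± 0.19 (edgeR FDR 0.122). Its range was 6.71 to 25.8 CPM in severe NEC and 3.99 to 19.3 CPM in CON, and its span overlaps interferon-induced IFIT genes. The cholesterol exporters NPC1 and NPC2 had log2 fold changes of 0.37 and 0.00. For PSAP, the precursor of the saposins that help enzymes reach sphingolipids, it was 0.26, for the acid sphingomyelinase SMPD1 0.14 and for the ganglioside activator GM2A 0.02.

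Of the 7 glycosidases tested, 5 read higher and 2 lower in severe NEC (median 0.22), with none called. GLA, which takes the terminal galactose off globotriaosylceramide, had 1.87, 2.71 and 3.27 CPM (lowest, median, highest) in severe NEC and 0.975, 1.87 and 4.43 CPM in CON. The 9 severe libraries were all above the CON median, although 2 CON libraries exceeded the highest of them. That median pools batches whose CON levels differ. Mean GLA levels in severe and CON libraries were 2.08 and 1.51 CPM in batch 1 and 2.87 and 1.54 CPM in batch 2. In batch 3 the severe mean of 2.90 CPM lay below the FKDL CON mean of 3.31 CPM and above the BKDL CON mean of 2.40 CPM. Its log2 fold change was 0.53 ± 0.19 (edgeR FDR 0.117). The glycogen-degrading enzyme GAA had a log2 fold change of 0.49, the sialidase NEU1 0.33, the mannosidase MAN2B1 0.22 and the glucuronidase GUSB 0.10. The hexosaminidase subunit HEXA and the galactosidase GLB1 read lower, at -0.04 and -0.12.

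The proteases were mixed. Of 9 tested, 6 read higher and 3 lower, with a median log2 fold change of 0.11 and no call. Legumain (LGMN), an asparaginyl endopeptidase, read highest of them at 0.43, then CTSS, a cysteine protease that trims the invariant chain of MHC class II, at 0.35. Smaller values were found for the tripeptidyl peptidase TPP1 (0.20), the aminopeptidase CTSH (0.18), the cysteine protease CTSB (0.11), the carboxypeptidase CTSZ (0.05) and the aspartic protease CTSD (-0.06). CTSC, which activates the serine proteases of neutrophil granules, read -0.15, and CTSA, a carboxypeptidase that also stabilises NEU1 and GLB1, read -0.25.

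Of the 7 membrane proteins 6 read higher (median 0.29) and none was called. LAMP1 and LAMP2, the abundant glycoproteins of the lysosomal membrane, had log2 fold changes of 0.41 and 0.36. LAPTM4A, a small protein of late endosomes and lysosomes, had 0.40, and the glucocerebrosidase receptor SCARB2 had 0.29. LAPTM5, a relative of LAPTM4A found in blood cells, had 0.08, the cation channel MCOLN1 0.06 and the tetraspanin CD63 -0.05. Beyond these, GRN, the precursor of the granulins, had 4.34, 11.9 and 21.1 CPM (lowest, median, highest) in severe NEC and 4.57, 8.23 and 14.8 CPM in CON. Only 7 of the 9 severe libraries exceeded the CON median, and the 3 of batch 1, at 21.1, 20.8 and 14.6 CPM, were highest. Its log2 fold change was 0.62 ± 0.21 (edgeR FDR 0.0931), and GRN passed without NEC_Severe replicate 9 (FDR 0.0187). GRN passed in none of 13 other settings (FDR 0.058 to 0.946). CREG1, a secreted glycoprotein also found in lysosomes, had -0.16.

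**Figure D3:**
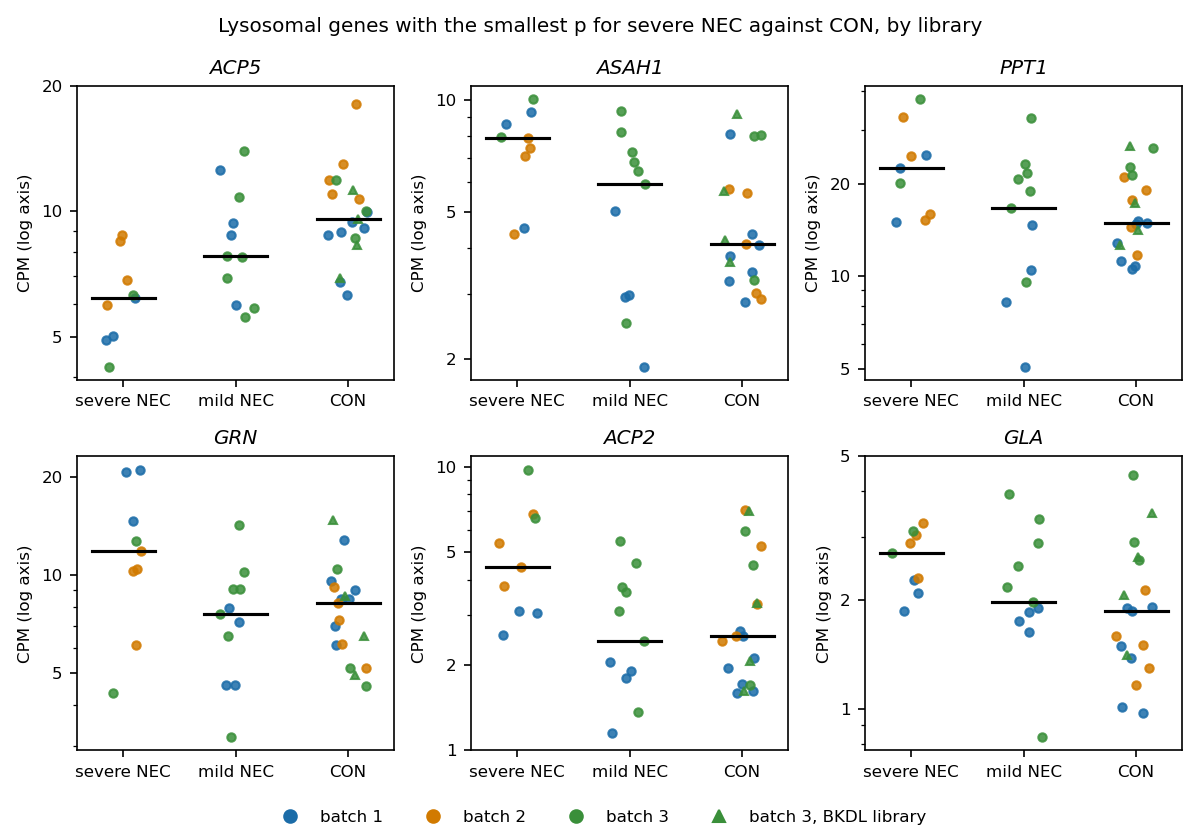
Levels of the 6 lysosomal genes with the smallest p for severe NEC against CON (vertical axes, CPM on a log scale), 1 point per library coloured by batch, with triangles for BKDL libraries and bars for group medians. ACP5 is lower in severe NEC (median 6.19 CPM, against 9.60 in CON), the other 5 genes have higher severe medians, and in each panel the groups overlap.

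Cell markers moved with the same contrast. Of 10 monocyte markers tested 9 read higher in severe NEC and 4 rose (VCAN, CSF1R, FCN2 and CD163). Their summed level had a range of 218 to 476 CPM in severe, 43.7 to 312 in mild and 93.6 to 432 in CON libraries. Neutrophil markers read higher for 8 of 9 tested with no call. The sum over all 12 neutrophil markers found, tested or not, ranged from 232 to 2581 CPM in severe libraries. In mild libraries it was 45.7 to 2568 CPM and in CON libraries 118 to 2620 CPM. All 15 platelet markers read lower, none called, with sums of 646 to 1459 CPM in severe, 198 to 1817 in mild and 855 to 2428 in CON libraries. All 10 B cell markers read lower and 3 fell, with sums of 25.9 to 74.0, 51.6 to 199 and 42.3 to 109 CPM in severe, mild and CON libraries. The 12 T cell markers read lower too and 1 fell, with sums of 86.4 to 307, 105 to 371 and 185 to 404 CPM. No marker found in the files was at 0 in all 39 libraries. The part of cell make-up in the lysosomal values was not tested beyond the fits with a marker level as a term.

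Mild NEC against CON gave the opposite leaning with no call. Of the 35 tested genes 6 had log2 fold changes above 0 and 29 below, where 50.3% of all genes were above, with a median of -0.23, against 0.00 over all genes. No gene of any kind passed in this comparison (0% of 10731 by edgeR, and 0 by DESeq2), and 4 of the 35 had an unadjusted p under 0.05, all lower, against 7.84% of all genes (4.48% lower). By role, 8 of 9 proteases, 7 of 8 lipid genes, 5 of 7 glycosidases and 5 of 7 membrane proteins read lower. The smallest p belonged to CTSB, with 13.02, 21.3 and 43.0 CPM (lowest, median, highest) in mild NEC and 18.2, 29.7 and 44.5 CPM in CON. Of the 11 mild libraries 8 were under the CON median, and the log2 fold change was -0.48 ± 0.15 (edgeR FDR 0.562).

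CD63, a tetraspanin of lysosomes and of platelet and basophil granules, had 12.5, 27.1 and 32.3 CPM (lowest, median, highest) in mild NEC and 16.9, 35.2 and 64.9 CPM in CON. All 11 mild libraries lay below the CON median, and 11 of the 19 CON libraries exceeded the highest mild one. Its log2 fold change was -0.55 ± 0.21 (edgeR FDR 0.565). CTSD, with 27.3, 56.1 and 78.6 CPM in mild NEC and 40.04, 63.2 and 151 CPM in CON, had -0.57 ± 0.23 (edgeR FDR 0.565). Next came GUSB at -0.31 ± 0.15, CTSA at -0.44 ± 0.22 and LAPTM5 at -0.33 ± 0.18 (edgeR FDR 0.619, 0.635 and 0.640). In the same comparison 7 of 10 monocyte and 7 of 9 neutrophil markers read lower, as did all 15 platelet markers, while 8 of 10 B cell markers read higher. NEC_Mild replicates 1 and 10 had the lowest monocyte marker levels of all libraries.

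Severe and mild piglets were set against the same CON libraries, so their values stand side by side without a test of their likeness. In this layout 22 genes read above CON in severe and below it in mild NEC, 5 above in both (GLA, LAMP2, LAPTM4A, NPC1 and TPP1), 7 below in both (ACP5, CD63, CREG1, CTSA, CTSC, CTSD and HEXA), and GLB1 alone below in severe and above in mild. These patterns were not counted over all genes, so their numbers describe no trait of the list. For ACP5 the log2 fold change was -0.77 in severe and -0.07 in mild NEC, and for ASAH1 it was 0.73 and 0.00.

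Severe against mild NEC tested that gap directly. Of the 35 genes 33 read higher in severe piglets, where 45% of all genes did, with a median log2 fold change of 0.42, against -0.04 over all genes, yet none was called by edgeR, where 12 genes of all kinds passed (0.112%). At an unadjusted p under 0.05 there were 15 of 35, 14 of them higher and 1 lower, against 12.6% of all genes (6.42% higher and 6.21% lower). ACP5 was the lowest at -0.70 ± 0.17 (edgeR FDR 0.0819), and it passed by DESeq2 (log2 fold change -0.69, FDR 0.0204), 1 of 102 genes there. With edgeR it also passed without NEC_Mild replicate 7 (FDR 0.0327) or NEC_Severe replicate 9 (FDR 0.0465), against 0.0327 to 0.22 over the 39 libraries left out in turn. Highest was ACP2 at 0.86 ± 0.26 (edgeR FDR 0.171), whose 9 severe libraries all exceeded the mild median of 2.43 CPM. The same was true of CTSB, at 0.59 ± 0.18 (edgeR FDR 0.174) and a mild median of 21.3 CPM.

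PPT1 (0.71 ± 0.22), GRN (0.80 ± 0.26) and LIPA (0.69 ± 0.23) had edgeR FDR values of 0.164, 0.204 and 0.210. All 9 proteases, all 8 lipid genes and all 7 membrane proteins read higher in severe piglets, as did 6 of 7 glycosidases. All 10 monocyte and all 9 neutrophil markers also read higher, and all 10 B cell and 12 T cell markers lower. With the monocyte marker level as a term the median of the 35 genes was 0.05 and 24 of them read higher. Without NEC_Mild replicates 1 and 10 it was 0.33, with 32 higher.

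For NEC against CON, the contrast named in the study's design, the opposed leanings of mild and severe piglets were pooled. Here 17 of the 35 genes read higher and 18 lower (median -0.02), where 48.7% of all genes read higher, none was called, and no gene of any kind passed by edgeR (0%), although 14.4% had an unadjusted p under 0.05 (6.16% higher and 8.28% lower). DESeq2 called 36 genes, none lysosomal. The members with an unadjusted p under 0.05 were ACP5, at -0.38 ± 0.13 (edgeR FDR 0.208), and ASAH1, at 0.40 ± 0.18 (edgeR FDR 0.294). CTSA (-0.34), GLA (0.31), LAPTM4A (0.25) and NPC1 (0.26) had the next smallest p (edgeR FDR 0.358, 0.364, 0.396 and 0.427). Leaving out NEC_Mild replicates 1 and 10 made ACP5 pass, with a log2 fold change of -0.51 (FDR 0.0362, against 0.0362 to 0.274 over 13 settings).

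Within single batches no lysosomal gene was called, and few genes of any kind were. For severe NEC against CON 0.14% of all genes passed in batch 1, 0.00932% in batch 2 and 0.0932% in batch 3, and for mild NEC 0% passed in batches 1 and 3. Without NEC_Severe replicate 8, which left 1 severe library in batch 3, GLB1 had a log2 fold change of -2.77 there. The library left, NEC_Severe replicate 9, held 0.413 CPM of GLB1 from only 4 counts, the lowest count of this gene. The batches shared a direction for part of the list: 13 genes read higher in severe NEC in all 3 batches (ACP2, ASAH1, GAA, GRN, LAMP1, LAMP2, LGMN, LIPA, NPC1, PPT1, SCARB2, SMPD1 and TPP1), 2 lower in all 3 (ACP5 and GLB1), and 20 were mixed. The same counts were not made over all genes, so they describe no trait of the list. Of 35 genes 21, 22 and 28 read higher in severe NEC in batches 1, 2 and 3, against 47.6, 45.8 and 47.5% of all genes, and the median log2 fold changes were 0.09, 0.10 and 0.33. In mild NEC 6 and 8 of 35 read higher in batches 1 and 3 (medians -0.38 and -0.19), against 50.3 and 52% of all genes.

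The smallest p in batch 1 after severe NEC was that of CREG1, at -1.36 ± 0.36 (edgeR FDR 0.111), with 8.82, 12.7 and 9.10 CPM in severe libraries and 20.3 to 49.9 CPM in the 7 CON libraries. Batches 2 and 3 read differently, with log2 fold changes of 0.06 and 0.42. A test of CREG1's difference between batches gave an unadjusted p of 0.00457 but did not pass over all genes (edgeR FDR 0.345). That test called 3 genes in all (0.028%) for severe and 0% for mild NEC, none of them lysosomal. Other small p-values in batch 1 belonged to GRN (1.08), GAA (1.04), ACP5 (-0.67), ASAH1 (0.87) and NPC1 (0.78).

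In batch 2 severe NEC the smallest p after ACP5 was that of GLA, at 0.90 ± 0.29 (edgeR FDR 0.224). Its severe libraries had 2.31, 3.03, 3.27 and 2.88 CPM and its CON libraries 1.17, 1.51, 2.13, 1.59 and 1.30 CPM. LAMP2 (0.66), LGMN (0.88), CTSS (0.60) and CTSA (-0.58) followed. Batch 3, with 2 severe libraries, had ACP5 first, then MAN2B1 (0.78), LAPTM4A (0.83), GUSB (0.66), ACP2 (0.94) and LIPA (0.75). In mild NEC the leading genes of batch 1 were CREG1 (-1.05), CTSA (-0.88), CTSB (-0.68), NPC2 (-0.86), CD63 (-0.86) and CTSZ (-0.83), each with an edgeR FDR of 0.837. Those of batch 3 were MCOLN1 (-0.61), CTSA (-0.57), HEXA (-0.49), CTSH (-0.47), LAPTM4A (0.45) and GUSB (-0.37), each with an edgeR FDR of 0.987.

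More lysosomal genes were called between batches than between disease groups. Against batch 1, batch 2 had 7 of 35 called by edgeR, 6 higher and 1 lower (10.2% of all genes, with 5.67% higher and 4.58% lower). Legumain (LGMN) rose by 1.23, SMPD1 by 1.08, ACP2 by 0.93, CTSH by 0.89, SCARB2 by 0.72 and ACP5 by 0.53, and LAPTM4A fell by 0.87. Batch 3 had 16 of 35 called, all higher than batch 1, where 19% of all genes were called (11.3% higher and 7.73% lower). These were LGMN (1.60), ACP2 (1.06), GM2A (1.05), SCARB2 (1.04), LAMP1 (0.98), CTSH (0.95), LIPA (0.85), CTSA (0.81), PPT1 (0.76), LAPTM5 (0.71), SMPD1 (0.68), GLA (0.68), ASAH1 (0.64), GUSB (0.60), CTSS (0.48) and CTSB (0.43). The batches hold unequal numbers of severe and mild piglets, and each fit has batch as a term. Reads left unassigned as ambiguous made up 9.92 to 15.2% in batch 1 and 2.10 to 6.36% in batches 2 and 3. The annotated spans of 10 of the 36 genes overlap another gene, ACP2, LIPA and CTSA among them. The part of this in the batch differences was not tested.

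Between male and female piglets no lysosomal gene was called, with 13 genes of all kinds called (0.121%). GM2A had the smallest p (0.37 ± 0.19, edgeR FDR 0.654), then GRN (-0.26), NPC2 (0.27), LAPTM4A (0.19), NEU1 (-0.26) and PSAP (0.17). BKDL and FKDL controls of batch 3 also gave no lysosomal call, with 11 genes called in all (0.103%). The gene nearest to one was CTSA, with 7.42, 4.34, 5.42 and 7.92 CPM in BKDL controls and 10.6, 13.2 and 11.2 CPM in FKDL controls. Its log2 fold change was -1.03 ± 0.36 (edgeR FDR 0.595). CREG1 (-0.75), NPC2 (-0.63), CTSS (-0.48), CTSZ (-0.62) and MCOLN1 (-0.53) came next.

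How the lysosomal genes varied among piglets of 1 group was described by their slope on the level of blood cell markers. A marker level was the mean log2 CPM of a marker list in a library, added as a numeric term beside severity, batch and sex, and a slope is in log2 units per log2 unit of that level. Gene and marker levels come from the same libraries and share their composition, so a slope does not place a transcript in a cell type. On the monocyte level 19 of the 35 genes were called by edgeR, 18 with positive slopes, against 14.3% of all genes called, 11.2% positive and 3.11% negative, and the median slope of the 35 was 0.43. The smallest p belonged to PPT1 (0.79 ± 0.11, FDR 2.3e-06), GRN (0.92 ± 0.13, FDR 4.4e-06), GAA (0.95 ± 0.15, FDR 2.3e-05) and ASAH1 (0.79 ± 0.15, FDR 0.000255). ACP5 alone had a negative called slope, -0.33 (FDR 0.0313).

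**Figure D4:**
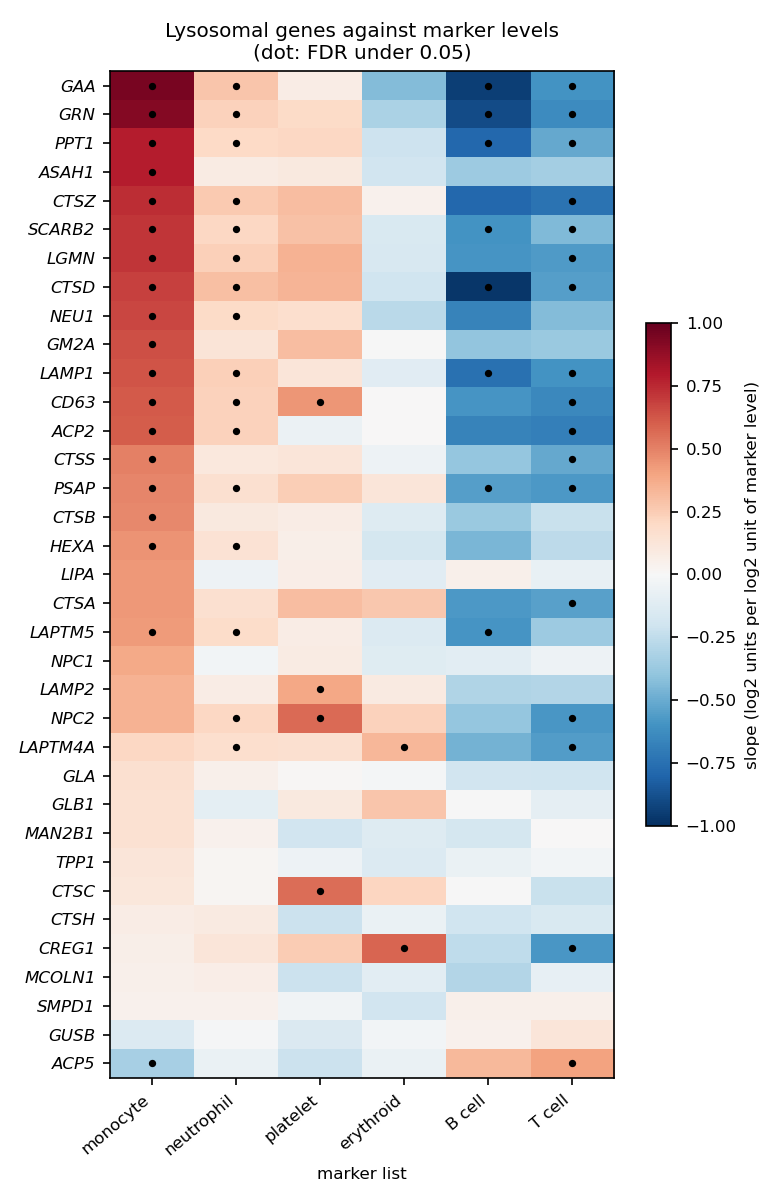
Slope of each tested lysosomal gene (rows) on the level of 6 marker lists (columns), in log2 units per log2 unit of marker level, red for positive and blue for negative, with a dot for an FDR under 0.05. The monocyte column holds 18 positive called slopes and the T cell column 16 negative ones, and ACP5, in the bottom row, has the opposite sign in both.

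The neutrophil level gave 16 called slopes, all positive, against 25.2% of all genes called, 14.5% positive and 10.7% negative. CTSD (0.30), LAMP1 (0.24), GAA (0.28) and CD63 (0.23) led. Of these 16 genes 14 were also called for monocytes. Platelet level called 4 genes, all positive (4.16% of all genes called, 3.8% positive and 0.354% negative): CTSC (0.56 ± 0.09, edgeR FDR 4.7e-05), LAMP2 (0.38), NPC2 (0.57) and CD63 (0.44). The erythroid level called 2, CREG1 (0.58) and LAPTM4A (0.33), against 6.12% of all genes (5.54% positive and 0.587% negative), and the next smallest p belonged to GAA (-0.43) and GRN (-0.31).

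Lymphocyte markers gave mostly negative slopes. On the B cell level 8 genes were called, all negative, against 10.8% of all genes called, 2.83% positive and 8% negative, led by PPT1 (-0.78), GRN (-0.89), CTSD (-0.97) and LAMP1 (-0.75). On the T cell level 17 were called, 16 of them negative, against 22.8% of all genes called (11.5% positive and 11.3% negative), led by LAPTM4A (-0.56), PSAP (-0.58), LAMP1 (-0.60) and CTSZ (-0.74). ACP5 was again apart, with a T cell slope of 0.40. No called slope in any of the 6 fits was found for 10 members: CTSH, GLA, GLB1, GUSB, LIPA, MAN2B1, MCOLN1, NPC1, SMPD1 and TPP1.

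A pair of libraries weighed on these slopes. NEC_Mild replicates 1 and 10 had monocyte levels of 0.60 and 1.45, below the other libraries, and also held 5.08 and 9.56 CPM of PPT1 and 4.61 and 3.19 CPM of GRN. Without both, the called genes numbered 11 for monocytes, all positive, 1 for platelets (CTSC), 5 for B cells and 11 for T cells. Of all genes, 858, 354, 599 and 1847 were then called, against 1533, 446, 1163 and 2444 with all libraries.

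**Figure D5:**
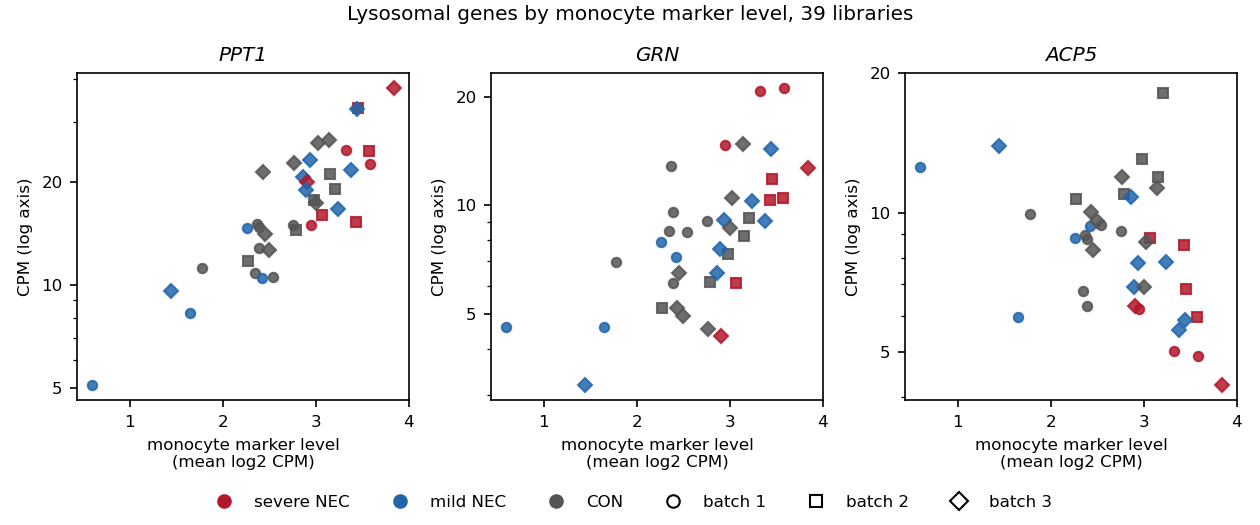
Levels of PPT1, GRN and ACP5 (vertical axes, CPM on a log scale) against the monocyte marker level (horizontal axes, mean log2 CPM) in 39 libraries, coloured by group with a symbol per batch. PPT1 and GRN are higher where the monocyte level is higher (slopes 0.79 and 0.92), ACP5 is lower (slope -0.33), and the lowest monocyte level, 0.60, belongs to a mild NEC library.

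Other parts of the lysosomal system were read from fixed lists in the same fits. Of 21 proton pump genes 13 were tested, 10 read higher in severe NEC against CON (median 0.28) and 2 rose. These were ATP6V1A, the catalytic subunit of the cytosolic sector, at 0.65 ± 0.14 (edgeR FDR 0.0166), and ATP6V1C1, of the same sector, at 0.78 ± 0.21 (edgeR FDR 0.0397). ATP6V1D (0.46) and ATP6V1B2 (0.43) did not pass. Of 12 tested genes for enzyme sorting 8 read higher (median 0.08) and 1 rose: IGF2R, the large mannose 6-phosphate receptor, at 0.68 ± 0.19 (edgeR FDR 0.0495). GNPTAB, which encodes subunits of the enzyme that makes the mannose 6-phosphate tag, read 0.56, and the adaptor subunits AP3B1 and AP1G1 read 0.40 and 0.34.

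Of 30 other lysosomal genes tested 20 read higher (median 0.08). The macrophage glycoprotein CD68 read 0.75, the sulfatase IDS 0.39 and the carboxypeptidase SCPEP1 0.55, and none of these passed (edgeR FDR 0.0769, 0.108 and 0.158). Among 16 tested genes of TFEB and mTORC1 control 9 read higher (median 0.11) and none passed. TFEC, a TFEB relative of myeloid cells, read 1.15 ± 0.35 (edgeR FDR 0.0621), TFEB itself 0.40, and the folliculin complex genes FLCN and FNIP1 read -0.36 and 0.46. Of 7 protease inhibitors 5 read lower (median -0.28), none called, with SERPINB1 at 0.60, SERPINB6 at -0.42, and LXN and the cystatin CST3 at -0.28 each. The share of all genes called in this comparison was 2.09%. None of these 5 lists had a called gene in mild NEC against CON, severe against mild NEC or NEC against CON. In severe against mild NEC 12 of 13 pump genes, 11 of 12 sorting genes, 21 of 30 other lysosomal genes, 9 of 16 of the TFEB list and 4 of 7 inhibitors read higher.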

How the data were processed

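Blood RNA of 39 piglets was sequenced as paired-end reads from mRNA-seq libraries, per the labels' protocols. The authors deposited raw counts per gene for each library (25880 genes, with 5 closing lines for unassigned reads). The submitters' processing notes name Trim Galore, TopHat, HTSeq, DESeq2 and Sscrofa11.1. The sources used here do not give versions, annotation release or strand use. The closing lines were left out of every sum and test. Relative to all reads in a file, they held a mean of 7.48% ambiguous reads, 2.20% outside genes and 16.4 to 51.9% aligned to several places. The ambiguous share was 9.92 to 15.2% in batch 1 and 2.10 to 6.36% in batches 2 and 3.

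Symbols came from a table of Ensembl pig IDs (14857 genes named), and coordinates from a RefSeq table of Sscrofa11.1. Genes were tested with edgeR 4.0.16 in R 4.3.3 (quasi-likelihood F test, robust dispersions, TMM scaling, filterByExpr with a minimum count of 10, Benjamini-Hochberg adjustment over 10731 genes, threshold FDR 0.05), with severity or NEC, batch and sex as terms and all 39 libraries in each fit. Within-batch values came from a fit with 9 batch and severity classes, in which NEC of batch 3 was set against its FKDL controls. Errors after log2 fold changes are standard errors, obtained from each change and its F value. Marker levels used a prior count of 2. Alternatives were DESeq2 1.42.0, its size factors, other filters, removal of globin genes, other covariates and libraries left out. The scripts were tested on simulated data. Replicate libraries of each group differed beyond sampling noise (lowest chi-square per degree of freedom 9.61). Each library has its own piglet title and was taken as 1 replicate. Replicate numbers follow accession order and pair nothing.

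The 37 genes, the gene lists and the tests were chosen with earlier results of these data known. In each comparison the text gives every member with FDR under 0.05, or the 6 with the smallest p where fewer pass. It gives the 4 with the smallest p for each marker slope and other list. One result among the other lysosomal genes is not reported here. Promoters were not analysed here.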

Additional observations from a re-analysis of the deposited data

Results flagged for a closer look

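Among 36 lysosomal genes, the severe NEC group of 9 libraries held a library far from the others for 2, judged by the gap to its neighbour relative to the whole range (limit 0.493). Chance alone flags about 1 in 20 groups. GUSB, the beta-glucuronidase, read 15.2 CPM in NEC_Severe replicate 9, where the group's median was 5.85 CPM. LIPA, the acid lipase, read 25.8 CPM in NEC_Severe replicate 8, where the group's median was 12.3 CPM. Both libraries are the severe ones of batch 3.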

How the results depend on the processing

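Of 108 comparisons of a count of called genes with an alternative that left out no single library, 96 stayed within 1.5 times the main count and 12 did not. For severe NEC against CON the 2 calls became 1, ACP5, with neither batch nor sex terms, with batch 3 split by library series, with the second number of the sample title replacing batch, and without the 4 BKDL controls. In those fits ASAH1 had an FDR of 0.161, 0.0869, 0.0605 and 0.0908, and 38, 94, 92 and 70 genes of all kinds were called. DESeq2 called 3, adding PPT1 (FDR 0.0379). Severe against mild NEC had 1 call by DESeq2, and NEC against CON 1 without NEC_Mild replicates 1 and 10, ACP5 each time. These were among 102 and 42 genes of all kinds. Leaving NEC_Mild replicates 1 and 10 out gave 11 monocyte, 1 platelet, 5 B cell and 11 T cell slopes. Genes of all kinds called in those slope fits numbered 858, 354, 599 and 1847. Without severity, batch and sex terms 18 B cell slopes were called, among 1823 genes of all kinds. A fit on batch 1 alone called 1 lysosomal gene for severe NEC against CON, GRN (1.10, FDR 0.0376), among 77 genes of all kinds. With the monocyte level as a term 3 values changed sign: PPT1 (-0.0056) and GRN (-0.055) for severe NEC against CON, and GRN (-0.036) for severe against mild NEC. The median of the 35 genes for severe against mild NEC was then 0.05. The causes were not tested.

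With each library left out in turn, calls ranged from 1 to 4 for severe NEC against CON, 0 to 2 for severe against mild NEC, 6 to 8 for batch 2 and 14 to 17 for batch 3 against batch 1, and stayed at 0 for mild NEC or NEC against CON and for sex. The highest, 4, came without NEC_Severe replicate 9 (ACP5, ASAH1, GRN and PPT1), when 723 genes of all kinds passed, against 12 without NEC_Severe replicate 2 and 224 with all libraries. In batch 3, leaving out NEC_Severe replicate 8 leaves a lone severe library, assumed to vary like the other groups. GLB1 then had a log2 fold change of -2.77 for severe NEC against CON, resting on 4 counts in that library. Without CON replicate 16 or NEC_Severe replicate 2 the slopes called were 19 to 20 for monocytes, 3 to 4 for platelets, 9 to 11 for B cells and 16 to 18 for T cells. The libraries to leave out of the slopes, and the pair NEC_Mild replicates 1 and 10, were chosen after seeing the data.

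Globin reads lower the depth left for other genes, and 8 tested members had under 10 counts in some library. Severe NEC has 9 libraries and 2 in batch 3. A p that misses the threshold does not show equal levels. No paired analysis was possible because the labels give no replicate numbers that the groups share.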
